A study of Homo sapiens with 132 samples.

Results

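MKN7 cells are an established human gastric cancer cell line, and the 6 RNA-seq libraries described here compare MKN7 cells after 4 h with the kinase inhibitor afatinib (0.5 µM, 3 libraries) with untreated MKN7 cells of the same time point (3 libraries). They are 6 of the 132 libraries of a study of EGF, cetuximab, trastuzumab and afatinib in 4 gastric cancer cell lines. All libraries with cell line MKN7, time 4 h and treatment afatinib alone or none were taken, this rule names no gene, and 18483 genes could be tested. Both groups were grown in RPMI medium with 10% serum and were given fresh medium before the treatment began, so the untreated cells were not deprived of growth factors. No other agent was added to either group. A further 4 MKN7 groups of 3 libraries each serve for comparison below: cells given trastuzumab (5 µg/ml) or trastuzumab + afatinib for 4 h, and cells untreated or given afatinib for 24 h, the latter with the same dose. The 4 h groups untreated and afatinib of NCI-N87 and MKN1 cells, 2 other gastric cancer lines, also had 3 libraries each. The afatinib cells were set against untreated cells and not against cells given the solvent of the drug, so effects of afatinib and of its solvent cannot be told apart in these libraries. A cell line is 1 clone or population, and no label states that the replicates were separate cultures, so p-values measure the spread between these samples, which may be technical.

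Afatinib binds the kinase domain of EGFR, HER2 (the ERBB2 product) and HER4 covalently and thereby blocks signalling from all dimers of the ERBB family, including those with HER3, whose own kinase is nearly inactive. Active ERBB receptors feed the RAS-RAF-MEK-ERK cascade, known as the MAPK pathway, and the PI3K-AKT pathway. ERK induces immediate early transcription factors (EGR, FOS) within minutes, and somewhat later it induces its own brakes, the DUSP phosphatases and the Sprouty and SPRED proteins. AKT keeps FOXO transcription factors out of the nucleus. ERBB2 is often amplified in gastric cancer, and MKN7 cells were chosen by the study as a line that responds to afatinib but not to the HER2 antibody trastuzumab.

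Total counts were 40310266 to 48784366 in the untreated and 50210829 to 52183554 in the afatinib libraries, and these ranges did not overlap. More genes reached 10 counts after afatinib (16766 to 16953) than in untreated cells (16207 to 16479). The share of counts on the nuclear noncoding RNAs MALAT1 and NEAT1 was 0.161% to 0.199% after afatinib and 0.103% to 0.115% without it, and that on histone genes was 0.0505% to 0.0544% against 0.0322% to 0.0380%. These values moved with the treatment, and their part in the results was not tested. Levels are given as CPM, counts scaled to the size of the library, after TMM normalization, which brings libraries to a common composition, with the SD over the 3 libraries of a group. A count of 3, taken as the floor of a library, corresponds to 0.0575 to 0.0597 CPM in the afatinib and 0.0615 to 0.0744 CPM in the untreated libraries. The 9 epithelial markers summed to 6368 to 7264 CPM in untreated and 5789 to 6532 CPM in afatinib libraries, and none of them was at 0. The 7 fibroblast markers summed to 9.0 to 15 and 12.6 to 16 CPM, the 7 immune markers to 0.679 to 1.17 and 0.597 to 1.36 CPM, and the 5 endothelial markers to 1.07 to 2.53 and 1.08 to 1.57 CPM. A single fibroblast marker, and 4 of the immune markers in untreated and 3 in afatinib libraries, were at 0. PECAM1 (log2FC -1.12, adjusted p = 0.00676), an endothelial adhesion molecule, was the 1 regulated gene among these 3 lists, from 0.563 to 1.92 CPM to 0.217 to 0.665 CPM with overlapping groups, and its adjusted p was 0.174 without the replicate block, 0.251 without replicate 1, 0.151 without afatinib replicate 1 and 0.0569 without untreated replicate 1. Of 19674 protein coding genes 3079 were listed at 0 in all 6 libraries, among them genes that most cells use such as JUNB, CDK2 and BAK1, so a 0 in these files need not mean that a gene was silent. Of the 555 genes in the lists used here, 41 were listed at 0 and 479 could be tested.

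After 4 h of afatinib, feedback inhibitors of the MAPK pathway such as SPRY4, DUSP6 and SPRED2, the transcription factors EGR1, FOSL1 and MYC, and 4 ligands of EGFR were lower. DIO2, the CDK inhibitors CDKN1C and CDKN2C and the FOXO targets CCNG2 and FBXO32 were higher, whereas the CDK inhibitor CDKN1A was lower. The list of FOXO factors, their targets and the insulin receptor pathway had a median log2 fold change of only 0.09. With an adjusted p below 0.05 (edgeR, Benjamini-Hochberg) and a log2 fold change (log2FC) beyond 1 in either direction as limits for a regulated gene, 747 genes were regulated, which is 4.04% of the genes tested. Of these, 406 were higher (2.2%) and 341 lower (1.84%). By the adjusted p alone, 3265 genes rose (17.7%) and 3828 fell (20.7%), and the median log2FC of all genes was 0.0061. In 34.3% of all genes tested, the 3 afatinib values lay entirely above or entirely below the 3 untreated values. With libraries scaled by their total alone, the split was 531 higher and 274 lower, and the median of all genes moved to 0.085, so the balance of rises and falls depends on the scaling more than the number of calls does.

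Rises and falls were of different kinds. Of the 406 higher genes, 201 were protein coding (49.5%) and 154 long noncoding (37.9%), and only 99 (24.4%) had a mean log2 CPM above 1 over the 6 libraries. Of the 341 lower genes, 248 were protein coding (72.7%), 69 long noncoding (20.2%), and 194 (56.9%) had a mean log2 CPM above 1. Among all genes tested, 75.1% were protein coding, 17.7% were long noncoding and 64.5% had that level. Thus falls prevailed above this level (194 of 293 regulated genes), while rises prevailed among the other regulated genes (307 of 454). In the protein coding genes above that level, 177 were lower and 73 higher.

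**Figure D1:**
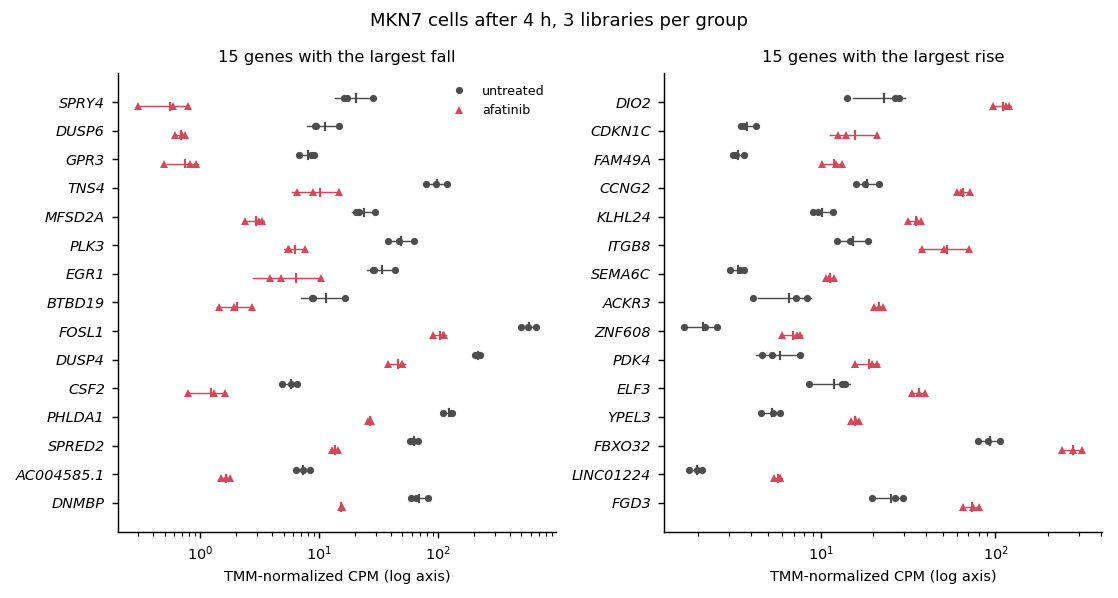
TMM-normalized CPM (log axis) of the 15 regulated genes with the largest falls (left) and rises (right) in MKN7 cells after 4 h, for 3 untreated libraries (dots) and 3 afatinib libraries (triangles). Horizontal lines are the mean ± SD, drawn no lower than 0.05 CPM, and small vertical bars the mean. The libraries of each gene fall into 2 separate groups, from SPRY4 (16.2 to 28.4 CPM without and 0.296 to 0.779 CPM with afatinib) to FGD3 (19.8 to 29.7 and 65.5 to 80.1 CPM).

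The plot of levels by library shows the 15 largest falls and the 15 largest rises, taken from regulated genes that moved alike in all 3 numbered pairs and whose mean log2 CPM was above 1. All 30 kept their call in every alternative analysis. SPRY4, a Sprouty protein that restrains receptor tyrosine kinase signalling to RAS, fell the most. It had 17.0, 16.2 and 28.4 CPM in the untreated libraries and 0.779, 0.296 and 0.589 CPM in the afatinib libraries (ENSG00000187678, GRCh38 chromosome 5, 142310427 to 142326455). The means were 20.5 ± 6.86 and 0.554 ± 0.243 CPM (SD, n = 3 each), a 36.7-fold lower level with a log2FC of -5.20 (SE 0.26, adjusted p = 9.31e-13 from edgeR). SPRY4 overlaps SPRY4-AS1 on the other strand, so reads of the pair may be mixed. DUSP6, the cytoplasmic phosphatase that removes the activating phosphates from ERK, had 9.41, 9.12 and 14.8 CPM without and 0.739, 0.611 and 0.703 CPM with afatinib (chromosome 12, 89347232 to 89353271). Its mean was thus 16.1-fold lower (log2FC -4.01, SE 0.27, adjusted p = 1.45e-10).

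The wider family of ERK brakes fell with them. All 3 SPRED genes, whose products bind RAF and block its activation, were regulated lower. SPRED2 went from 62.0 ± 5.00 to 13.5 ± 0.735 CPM (log2FC -2.20), SPRED1 from 35.5 ± 4.18 to 8.48 ± 0.390 CPM (-2.07), and SPRED3 from 1.59 ± 0.136 to 0.736 ± 0.108 CPM (-1.11). Of the 7 genes of the Sprouty and SPRED list, 5 were regulated lower and none higher, the list median was a log2FC of -1.11, and 6 fell and 1 rose by the adjusted p alone. SPRY2 passed the log2 limit narrowly (43.1, 37.6 and 38.6 CPM to 25.2, 17.3 and 17.5 CPM, log2FC -1.01), and it missed the limit in 11 alternatives, for example at -0.95 without afatinib replicate 2. Of the 10 DUSP phosphatases tested, 5 were regulated lower and none higher (median log2FC -1.13). The nuclear phosphatases DUSP4 (215 ± 10.9 to 45.5 ± 6.63 CPM, log2FC -2.25), DUSP5 (24.9 ± 5.65 to 6.27 ± 3.66 CPM, -2.09) and DUSP2 (2.15 ± 0.551 to 0.384 ± 0.115 CPM, -2.47) and the cytoplasmic DUSP7 (75.4 ± 7.16 to 24.0 ± 2.12 CPM, -1.65) fell beside DUSP6. The phosphatase DUSP10, which acts on JNK and p38 rather than on ERK, rose from 72.4 ± 9.17 to 105 ± 16.7 CPM (log2FC 0.53, adjusted p = 2.44e-09). In a list of 10 genes used elsewhere as a readout of MAPK activity, 9 could be tested, 8 were regulated lower (median log2FC -2.03) and EPHA4 rose (log2FC 0.56, overlapping groups). Against 1.84% of all genes regulated lower, these lists held 8 of 9, 5 of 10 and 5 of 7 members. SPRY2, SPRY4, DUSP4 and DUSP6 stand in more than 1 of them. All lists, here and below, were chosen with earlier results of these data known. High shares of changed members may thus be partly built into the choice.

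Several large falls lay outside these families. GPR3, a receptor that raises cyclic AMP without a ligand, went from 6.71 to 9.06 CPM without to 0.493 to 0.911 CPM with afatinib (log2FC -3.45). TNS4, a member of the tensin family, had 118, 78.8 and 96.0 CPM without and 14.7, 8.89 and 6.55 CPM with afatinib, 10-fold less (log2FC -3.33, SE 0.15, adjusted p = 1.58e-13). MFSD2A, a lysophospholipid transporter, fell 8.17-fold (23.9 ± 5.05 to 2.92 ± 0.489 CPM) and PLK3, a polo-like kinase of the stress response, 7.82-fold (49.0 ± 12.4 to 6.21 ± 1.16 CPM). PHLDA1, a pleckstrin homology domain protein induced by growth factors, had 111 to 131 CPM without and 25.6 to 27.4 CPM with afatinib (log2FC -2.22). DNMBP, a scaffold that activates CDC42, fell from 68.7 ± 12.3 to 15.3 ± 0.128 CPM (log2FC -2.16). In these 6 genes, as in the ERK brakes just named, every afatinib library lay below every untreated library.

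Transcription factors of the immediate early response were mostly lower, but unequally. Of all genes tested, 1.84% were regulated lower and 2.2% higher, and 20.7% fell and 17.7% rose by the adjusted p alone. EGR1, a zinc finger factor induced by ERK through the serum response factor, had 28.4, 29 and 42.9 CPM without and 10.4, 4.79 and 3.82 CPM with afatinib (log2FC -2.51, SE 0.25, adjusted p = 5.47e-08). FOSL1, the AP-1 subunit whose protein ERK stabilizes, had 570, 498 and 666 CPM and fell to 111, 90.3 and 112 CPM (log2FC -2.47, SE 0.08, adjusted p = 9.92e-16). FOS itself moved less, from 12.3, 5.78 and 8.24 CPM to 7.13, 2.54 and 2.28 CPM. The FOS groups overlapped, and the log2FC of -1.25 (adjusted p = 0.000272) turned to -0.99 without untreated replicate 3, while without the replicate block the adjusted p was 0.116. Of the 6 AP-1 subunits tested, 2 were regulated lower, JUN (-0.35) and FOSL2 (-0.28) fell by less, and JUND (0.64) and ATF3 (0.45, overlapping groups) rose. Of 6 EGR and NAB genes, 3 were regulated lower (median log2FC -0.64). Beside EGR1 these were the low EGR2 (1.52 ± 0.249 to 0.715 ± 0.333 CPM) and EGR4 (0.886 ± 0.327 to 0.329 ± 0.268 CPM, overlapping groups). The EGR2 log2FC of -1.11 was -0.96 without afatinib replicate 2, and the adjusted p of EGR4 was 0.0519 without untreated replicate 3 and 0.0633 without the block. Among 20 other immediate early genes, 5 were regulated lower and none higher (14 fell and 3 rose by the adjusted p alone), including the small MAF factor MAFF (32.3 ± 2.88 to 10.3 ± 1.38 CPM, log2FC -1.66) and IER3 (103 ± 18.4 to 44.5 ± 9.63 CPM, -1.22). Of 10 ETS factors, 3 were regulated lower and 1 higher. ETV5, a PEA3 factor that depends on ERK, went from 24.9 ± 2.61 to 6.27 ± 0.200 CPM (log2FC -1.98), ETV1 from 2.19 ± 0.513 to 0.846 ± 0.349 CPM (-1.38) and ETS1 from 399 ± 31.5 to 172 ± 16.0 CPM (-1.21). The epithelial ETS factor ELF3 went the other way, from 13.3, 13.8 and 8.58 CPM to 39.4, 36.5 and 33.4 CPM (log2FC 1.64, SE 0.15, adjusted p = 1.17e-08).

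Among the plotted genes matched in the RefSeq table, the 3 largest falls and the 3 largest rises were taken, with EGR1. To set letters beside these levels, the 250 bases before their RefSeq start sites were read (GRCh38.p14), and 6 motifs were searched on both strands. They were the AP-1 site TGANTCA, the CRE TGACGTCA, the EGR site GCGNGGGCG, the E-box CACGTG, the forkhead core GTAAACA and the serum response element by its name. The 5 windows with a match are printed 5′ to 3′ on the strand of the gene, with capitals at the matches. EGR1 holds an EGR site and a pair of serum response elements, SPRY4 an EGR site (on the opposite strand), GPR3 an EGR site and, nearer to the start, a CRE, CCNG2 an E-box and KLHL24 an AP-1 site. No motif was found in these windows of DUSP6 and DIO2. CDKN1C and FAM49A rose more than CCNG2 and KLHL24 but had no match in the table. The RefSeq starts of SPRY4, DUSP6, DIO2, CCNG2 and KLHL24 lie inside the intervals that GENCODE gives for these genes. Their windows are therefore not those of the GENCODE starts, and the windows of SPRY4, DUSP6 and DIO2 lie wholly within the gene intervals.
EGR1 (chr5:138465229-138465478, plus strand): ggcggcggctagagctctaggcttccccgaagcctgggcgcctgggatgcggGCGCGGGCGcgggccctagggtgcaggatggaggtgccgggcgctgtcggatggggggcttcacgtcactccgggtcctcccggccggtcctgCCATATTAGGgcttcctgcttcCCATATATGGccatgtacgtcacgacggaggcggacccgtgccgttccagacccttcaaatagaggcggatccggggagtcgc
SPRY4 (chr5:142324248-142324497, minus strand): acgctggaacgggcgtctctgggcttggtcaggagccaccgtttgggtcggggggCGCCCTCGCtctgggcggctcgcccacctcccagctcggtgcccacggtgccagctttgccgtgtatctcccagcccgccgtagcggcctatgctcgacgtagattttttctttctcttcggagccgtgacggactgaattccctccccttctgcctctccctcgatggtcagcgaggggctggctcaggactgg
GPR3 (chr1:27392372-27392621, plus strand): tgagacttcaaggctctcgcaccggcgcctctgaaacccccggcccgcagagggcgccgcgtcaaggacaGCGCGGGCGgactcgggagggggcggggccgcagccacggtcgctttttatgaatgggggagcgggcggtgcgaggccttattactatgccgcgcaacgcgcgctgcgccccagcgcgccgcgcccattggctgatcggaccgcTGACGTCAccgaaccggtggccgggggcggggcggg
CCNG2 (chr4:77156957-77157206, plus strand): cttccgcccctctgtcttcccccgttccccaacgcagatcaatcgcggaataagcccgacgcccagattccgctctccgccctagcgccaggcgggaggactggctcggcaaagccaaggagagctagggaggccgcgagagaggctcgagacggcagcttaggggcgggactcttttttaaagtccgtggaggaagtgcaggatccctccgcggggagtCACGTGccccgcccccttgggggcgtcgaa
KLHL24 (chr3:183635373-183635622, plus strand): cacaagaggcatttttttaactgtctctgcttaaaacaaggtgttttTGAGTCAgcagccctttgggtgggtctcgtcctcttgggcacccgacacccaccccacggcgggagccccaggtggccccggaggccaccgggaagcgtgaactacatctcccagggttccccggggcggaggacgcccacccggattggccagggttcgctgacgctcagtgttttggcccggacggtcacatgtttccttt
Of the 747 regulated genes, 365 had a window in the RefSeq table. The EGR site stood in 16.32% of the 190 lower and 10.29% of the 175 higher genes, against 13.4% of the 11529 tested genes with a window and 8.251% of all 27305 windows. The AP-1 site stood in 8.421% of the lower, 11.43% of the higher, 4.484% of the tested and 6.596% of all windows. For the CRE the shares were 3.158%, 1.143%, 2.619% and 1.765%, and for the E-box 8.947%, 9.714%, 8.37% and 6.49% in the same order. The forkhead core stood in 1.053% of the lower, 4% of the higher, 2.064% of the tested and 2.977% of all windows, and the serum response element in 1.579%, 0%, 1.032% and 1.143%. A match describes the letters of a window and no binding.

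Ligands of EGFR fell. Of 9 EGFR ligands and neuregulins tested, 4 were regulated lower and none higher, against 1.84% and 2.2% of all genes. Their median log2FC was -1.09, against 0.0061 for all genes. Heparin-binding EGF (HBEGF) had 95.7, 102 and 135 CPM without and 32.2, 26.8 and 22.7 CPM with afatinib (log2FC -2.03, SE 0.18, adjusted p = 4.93e-09). Amphiregulin (AREG) had 48.3, 38.4 and 47.8 CPM and fell to 15.8, 10.8 and 13.8 CPM (log2FC -1.74). TGF-alpha (TGFA) went from 281 ± 21.6 to 95.7 ± 6.52 CPM (log2FC -1.55) and epiregulin (EREG) from 120 ± 19.7 to 46.5 ± 5.19 CPM (-1.36), each without overlap of the groups. None of the 4 ERBB receptors was regulated. ERBB2 had 3616, 3959 and 3669 CPM without and 4319, 4533 and 4259 CPM with afatinib (log2FC 0.22, adjusted p = 0.00562), EGFR fell from 622 ± 86.1 to 429 ± 57.7 CPM (-0.54, adjusted p = 1.54e-05), and ERBB3 rose from 27.3 ± 1.47 to 50.8 ± 1.53 CPM (0.90, adjusted p = 2.04e-11). ERBB4 was at 5.42 ± 0.674 and 6.02 ± 1.09 CPM with overlapping groups (log2FC 0.15, adjusted p = 0.433). Among 11 genes that limit receptors themselves, ERRFI1 (MIG6, an EGFR kinase inhibitor; 156 ± 30.5 to 69.8 ± 16.1 CPM, log2FC -1.17) and the phosphatase PTPN12 (98.3 ± 4.8 to 43.6 ± 0.774 CPM, -1.17) were regulated lower, and the ubiquitin ligase CBLB was regulated higher (13.5, 14.4 and 11.0 CPM to 37.6, 34.5 and 28.5 CPM, log2FC 1.37, SE 0.09). Of 17 other receptor tyrosine kinases, 1 was regulated, the ephrin receptor EPHA2, which fell from 406, 350 and 401 CPM to 134, 82.9 and 75.5 CPM (log2FC -2.03). FGFR2 rose from 3.29 ± 0.462 to 5.86 ± 0.672 CPM (log2FC 0.84), and MET fell from 179 ± 12.8 to 135 ± 12.4 CPM (-0.41).

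The survival genes BCL2L1, BCL2 and MCL1 fell. BCL2L1, which encodes BCL-XL, had 224, 185 and 197 CPM without and 68.6, 58.2 and 58.9 CPM with afatinib (log2FC -1.70, SE 0.05, adjusted p = 1.01e-15). The low BCL2 went from 5.59 ± 0.823 to 1.92 ± 0.300 CPM (log2FC -1.54) and MCL1 from 334 ± 40.9 to 157 ± 9.35 CPM (-1.08). These were 3 of the 6 survival and effector genes tested, against 1.84% of all genes regulated lower, and BCL2L2 (0.77) rose. Of 8 BH3-only death genes, BMF alone was regulated (3.90, 3.44 and 2.78 CPM to 6.99, 6.53 and 8.07 CPM, log2FC 1.10), and its log2FC was 0.93 without untreated replicate 3 and 0.99 without afatinib replicate 3. BCL2L11 (BIM) rose from 30.2 ± 1.77 to 43.2 ± 3.11 CPM (0.52) and BBC3 (PUMA) from 3.22 ± 0.192 to 4.61 ± 0.566 CPM (0.51), whereas PMAIP1 (NOXA, -0.34) and BID (-0.26) fell with overlapping groups and BIK (-0.19) fell without overlap. Thus 3 of these 8 genes rose and 3 fell by the adjusted p alone, against 17.7% and 20.7% of all genes, with a list median of -0.0077. Without the replicate block 3 rose and 0 fell, while 4103 of all genes were called by the adjusted p, against 7093 with it.

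The largest rise was that of DIO2, the deiodinase that activates thyroid hormone. DIO2 had 28.0, 26.5 and 14.2 CPM without and 120, 115 and 96.6 CPM with afatinib (ENSG00000211448, chromosome 14, 80197527 to 80387757, log2FC 2.30, SE 0.18, adjusted p = 1.26e-09). DIO2 overlaps DIO2-AS1 on the other strand, and whether strand was used in counting is not given in the sources used here. CDKN1C, the CDK inhibitor p57, followed with 4.30, 3.51 and 3.63 CPM without and 12.5, 13.9 and 20.9 CPM with afatinib, 4.1-fold more (log2FC 2.04, SE 0.17, adjusted p = 2.35e-09). CCNG2, an unconventional cyclin of arrested cells, rose from 18.5 ± 2.93 to 65.0 ± 5.59 CPM (log2FC 1.82), KLHL24, an adaptor of a ubiquitin ligase, from 10.2 ± 1.40 to 35.0 ± 2.91 CPM (1.78) and the integrin subunit ITGB8 from 15.3 ± 3.11 to 52.9 ± 16.4 CPM (1.77). PDK4, a kinase that holds pyruvate back from oxidation, rose from 5.85 ± 1.58 to 18.8 ± 2.75 CPM (1.70), FBXO32 (atrogin-1) from 92.5 ± 13.5 to 277 ± 36.4 CPM (1.58) and the atypical chemokine receptor ACKR3 from 6.60 ± 2.21 to 21.5 ± 1.32 CPM (1.73). The remaining genes of the 15 were FAM49A (1.82), the semaphorin SEMA6C (1.75), ZNF608 (1.72), ELF3 (1.64), YPEL3 (1.59), the long noncoding LINC01224 (1.56) and FGD3 (1.55), a CDC42 exchange factor.

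CCNG2 and FBXO32 are textbook FOXO targets. Of the 21 genes in the list of FOXO factors, their targets and the insulin receptor pathway, 3 were regulated higher and 1 lower. Over all genes these shares were 2.2% and 1.84%. The third riser was FOXO6 (8.15 ± 0.739 to 20 ± 2.71 CPM, log2FC 1.29), and the one that fell was TRIB1 (32.1 ± 4.14 to 13.4 ± 0.887 CPM, -1.26), a pseudokinase scaffold. By the adjusted p alone 9 rose and 5 fell, against 17.7% and 20.7% of all genes, and the list median of 0.09 lay near that of all genes. Among those that rose, PIK3IP1, an inhibitor of PI3K, went from 4.71 ± 0.314 to 8.86 ± 0.277 CPM (0.91), CITED2 from 38.2 ± 10.6 to 63.5 ± 7.58 CPM (0.76), IGF1R from 58.8 ± 5.20 to 85.2 ± 13.1 CPM (0.52) and INSR from 22.7 ± 3.87 to 29.2 ± 5.07 CPM (0.37, overlapping groups). IRS1 fell (25.1 ± 3.16 to 15.2 ± 1.58 CPM, -0.73).

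MYC, the growth-promoting transcription factor, and cyclin D1 fell. MYC had 536, 513 and 521 CPM without and 157, 147 and 130 CPM with afatinib (log2FC -1.86, SE 0.06, adjusted p = 2.76e-15). Its antagonist MXD3 rose from 16.3 ± 0.667 to 35.8 ± 2.06 CPM (log2FC 1.14). These were the 2 regulated genes among 12 of the MYC and MXD network. Cyclin D1 (CCND1), which drives the G1 phase, had 1234, 1259 and 1482 CPM and fell to 391, 416 and 439 CPM (log2FC -1.67, SE 0.08). The CDK inhibitors did not move together. Beside CDKN1C, CDKN2C (p18) rose from 5.33 ± 0.691 to 12.2 ± 1.12 CPM (1.19) and CDKN1B (p27) from 60.6 ± 5.26 to 119 ± 4.29 CPM (0.97, under the limit of 1), whereas CDKN1A (p21) fell from 43.7, 43.8 and 71.5 CPM to 19.7, 17.8 and 19.0 CPM (-1.47, adjusted p = 4.38e-06). Thus 2 of 11 genes of the G1 list were regulated higher and 2 lower, against 2.2% and 1.84% of all genes.

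Genes of ribosome biogenesis fell by small amounts but nearly without exception. Of 27 tested, 26 fell and none rose by the adjusted p alone, against 20.7% of all genes that fell, and the list median was a log2FC of -0.49. The 2 that passed the log2 limit were POLR1B, a core subunit of RNA polymerase I (103 ± 8.23 to 49.8 ± 4.70 CPM, -1.04), and LYAR, a nucleolar protein (55.6 ± 4.81 to 26.4 ± 2.91 CPM, -1.07), and both lay just under the limit when libraries were scaled by their total alone (-0.96 and -0.996). WDR43 had 307, 305 and 300 CPM without and 158, 165 and 141 CPM with afatinib (-0.98). Genes of mitosis did not follow. Of 24 mitosis genes, 17 rose and none fell by the adjusted p alone, against 17.7% of all genes that rose, with a median log2FC of 0.20 and none regulated. The phosphatase CDC25C (26.9 ± 2.0 to 53.4 ± 3.90 CPM, 0.99) and the kinesin KIF20A (141 ± 8.92 to 239 ± 10.1 CPM, 0.76) rose the most among them. The number of mitosis genes that rose was 12 without the replicate block and 22 with scaling by library total alone. Of 28 S phase genes 8 rose and 2 fell (median 0.06), against 17.7% and 20.7% of all genes, with E2F2 (0.85) as the largest rise. These counts were 2 and 0 without the replicate block and 15 and 1 with scaling by library total alone. Over all genes the calls by the adjusted p moved too, from 7093 to 4103 without the block and to 7318 with that scaling. The median log2FC of all genes under that scaling was 0.085.

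**Figure D2:**
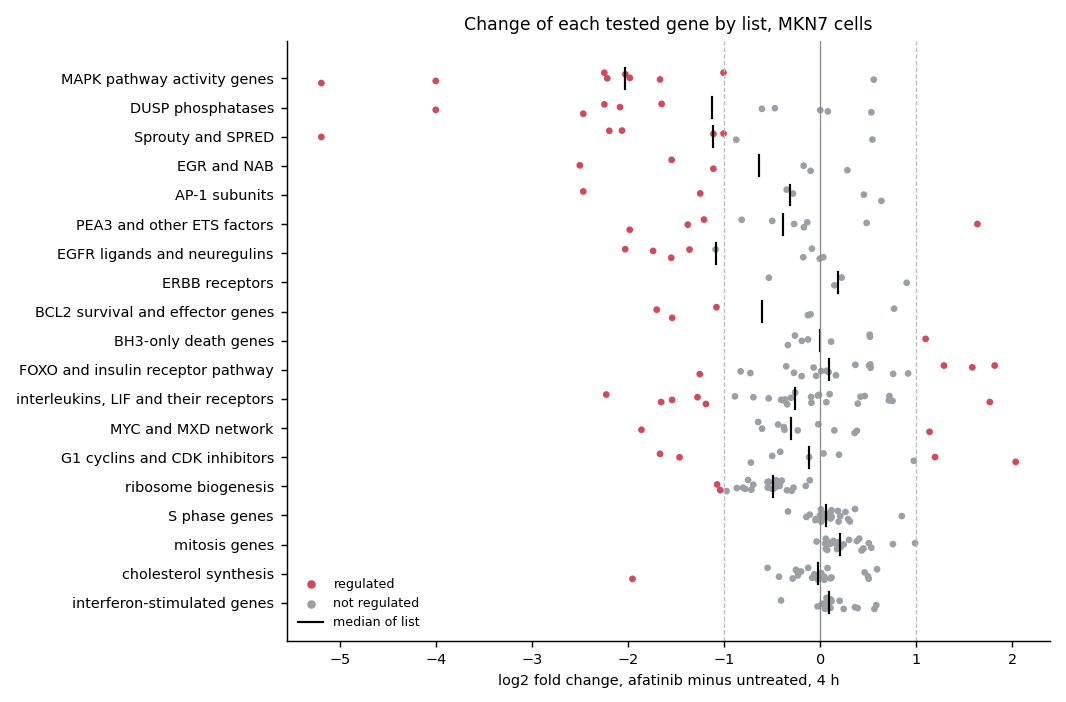
Log2 fold change (afatinib minus untreated, 4 h) of every tested gene in 19 gene lists, with regulated genes in red, the others in grey and the list median as a black bar. Dashed lines mark a log2 fold change of 1 in either direction. Medians run from -2.03 (MAPK pathway activity genes) to 0.20 (mitosis genes), and the ribosome biogenesis genes lie left of 0 in a narrow band around -0.49.

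Cytokine lists held a few large falls, which the plot of changes by list shows. Of 27 interleukins, LIF and their receptors, 5 were regulated lower and 1 higher (median log2FC -0.26), and 10 fell and 7 rose by the adjusted p alone. Over all genes tested, 1.84% were regulated lower and 2.2% higher, and 20.7% fell and 17.7% rose by the adjusted p alone. CSF2 (GM-CSF) had 5.80, 4.87 and 6.52 CPM without and 1.62, 0.789 and 1.29 CPM with afatinib (-2.23), LIF went from 93.6 ± 14.4 to 32.0 ± 1.53 CPM (-1.54) and IL24 from 45.7 ± 19.3 to 13.9 ± 1.66 CPM (-1.66). IL11 fell from 25.3 ± 7.02 to 10.7 ± 4.63 CPM (-1.28), with a log2FC of -0.97 without replicate 3. IL1A fell from 2.63 ± 0.455 to 1.15 ± 0.165 CPM (-1.19), but its adjusted p was 0.112 without the replicate block. IL22RA1, a subunit of the IL-22 receptor, had 0.765, 1.47 and 0.987 CPM and rose to 3.48, 3.91 and 3.53 CPM (1.76). Of 25 JAK-STAT genes, the feedback inhibitors SOCS3 (22.1 ± 1.62 to 9.21 ± 1.42 CPM, -1.27) and CISH (2.48 ± 0.0614 to 1.22 ± 0.0847 CPM, -1.02) were regulated lower, and CISH was at -0.95 without afatinib replicate 2. By the adjusted p alone 8 of the 25 fell and 7 rose (median 0.02). Of 9 chemokines, 1 was regulated, CCL20 (0.455 ± 0.140 to 0.117 ± 0.0334 CPM, -1.92), and 5 fell, among them CXCL8 (24.6 ± 8.52 to 14.5 ± 7.85 CPM, -0.82, overlapping groups), and 1 rose by the adjusted p alone, against 20.7% and 17.7% of all genes. Without the replicate block 1 fell and 1 rose, while 4103 of all genes were called by the adjusted p, against 7093 with it. Of 17 NF-kB genes, 11 fell and 1 rose by the adjusted p alone (median -0.26), which became 5 and 0 without the replicate block. NFKBIE alone was regulated (94.6 ± 11.2 to 46.9 ± 6.76 CPM, -1.02), with a log2FC of -0.96 without afatinib replicate 2.

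Genes of adhesion and motility were mostly lower. Of 25 adhesion, matrix and protease genes, 4 were regulated lower and none higher, against 1.84% and 2.2% of all genes. By the adjusted p alone 13 fell and 1 rose (median -0.38), against 20.7% and 17.7% of all genes. Beside TNS4 these were the collagen-binding integrin subunit ITGA2 (323, 368 and 444 CPM to 155, 177 and 161 CPM, -1.19), the urokinase receptor PLAUR (133 ± 29.5 to 61.1 ± 7.19 CPM, -1.11) and the hyaluronan synthase HAS3 (6.95 ± 1.41 to 2.26 ± 0.464 CPM, -1.62). ITGB8, named above, rose and is no member of this list. Of the 12 motility genes of the study that could be tested, 5 were regulated lower, and 10 fell and 1 rose by the adjusted p alone (median -0.91). The study chose them as genes regulated in MKN1 cells of this series by 4 h of afatinib with and without trastuzumab. The MKN7 libraries did not enter that choice, but the genes were picked for a response to the same drug and not for motility alone. Besides HBEGF, ETS1, ITGA2 and SPRY2 the regulated motility genes included PTGS2 (COX-2), which fell from 18.8 ± 3.97 to 7.03 ± 1.14 CPM (-1.41). Of 13 KLF factors, KLF2 (3.15 ± 0.398 to 1.15 ± 0.322 CPM, -1.46) and KLF16 (43.8 ± 5.57 to 16.7 ± 1.2 CPM, -1.39) were regulated lower. By the adjusted p alone 7 of the 13 fell and 1 rose (median -0.50). Of 20 Notch, ID and BMP genes, the Notch ligands JAG1 (41.6 ± 8.02 to 17.9 ± 1.61 CPM, -1.22, and -0.99 without replicate 3) and DLL1 (7.95 ± 0.380 to 2.68 ± 0.445 CPM, -1.57) were regulated lower. By the adjusted p alone 9 of these 20 fell and 5 rose (median -0.08).

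Metabolic lists had medians near that of all genes. Of 23 genes of cholesterol synthesis and uptake, 9 fell and 3 rose by the adjusted p alone (median log2FC -0.03), against 20.7% and 17.7% of all genes. Without the replicate block 3 fell and 3 rose, while 4103 of all genes were called by the adjusted p, against 7093 with it. Hexokinase 2 (HK2) had 180, 264 and 184 CPM and fell to 74.8, 106 and 48.9 CPM (-1.5), as the only regulated gene of 21 in glycolysis (median -0.04). TXNIP, which limits glucose uptake, rose from 179 ± 45.1 to 293 ± 58.6 CPM (0.72). None of 15 ATF4 targets (median -0.03), none of 19 interferon-stimulated genes (0.09) and none of 14 gut and gastric differentiation genes (-0.30) were regulated, though GATA6 rose from 12.5 ± 0.958 to 23.5 ± 4.57 CPM (0.90).

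Whether the effect appears again in other libraries could be asked of the cells given trastuzumab. Trastuzumab + afatinib against trastuzumab is the same drug, dose and time in 6 libraries outside the 2 groups compared above. Both comparisons come from 1 model with a shared filter, normalization, replicate block and estimate of spread, so their calls are not fully independent. In the trastuzumab pair 683 genes were regulated (3.7% of those tested), 427 higher (2.31%) and 256 lower (1.39%). Of the 341 genes lower after afatinib alone, 199 were regulated lower in this pair too, which is 58.4% of the first and 77.7% of the second list. Of the 406 higher genes, 196 were shared, 48.3% and 45.9% of the lists, and 0 genes were regulated in opposite directions. Of all 747 regulated genes, 724 (96.9%) had the same sign in the second pair and 535 (71.6%) also an adjusted p below 0.05, which 38.1% of all genes had there. SPRY4 again changed the most among the largest falls (log2FC -5.05), followed by GPR3 (-3.84), DUSP6 (-3.62) and TNS4 (-3.30), and DIO2 (2.0), CDKN1C (1.92) and KLHL24 (1.79) rose. Of the lists, 7 of 9 MAPK pathway activity genes (8 after afatinib alone), 5 of 10 DUSP phosphatases (5) and 3 of 7 Sprouty and SPRED genes (5) were regulated lower in this pair. By the adjusted p alone 26 of 27 ribosome biogenesis genes were lower (19.3% of all genes), while 13 of 24 mitosis genes rose (18.8% of all), and 4 of 28 S phase genes rose and 3 fell. ERRFI1 (-0.87) and MCL1 (-0.94) stayed under the log2 limit there.

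**Figure D3:**
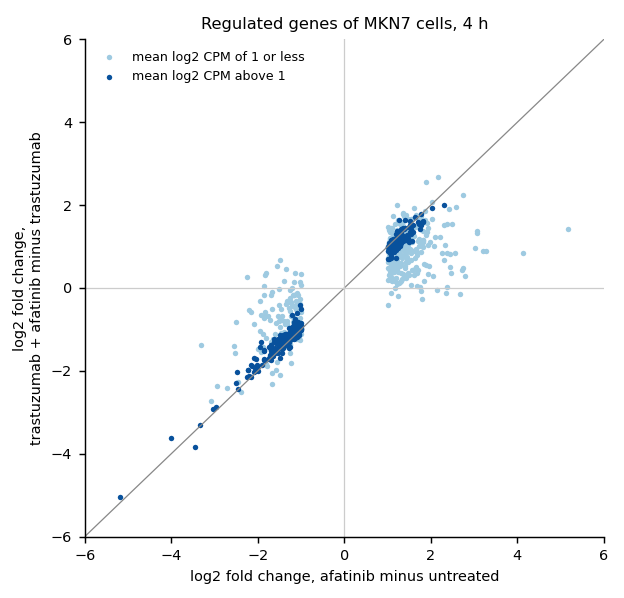
Log2 fold change of the 747 genes regulated in MKN7 cells by afatinib against untreated (horizontal axis) and the change of the same genes by trastuzumab + afatinib against trastuzumab (vertical axis), both at 4 h, with equality as the grey diagonal. Genes with a mean log2 CPM above 1 (dark) lie near the diagonal, and those at lower levels (pale) scatter, with 724 of all 747 on the same side of 0 on both axes.

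Trastuzumab alone gave no regulated gene at 4 h. Against untreated cells 0 genes were regulated by edgeR and by DESeq2, with 2487 genes (13.5%) at an unadjusted p below 0.05. With trastuzumab + afatinib against afatinib the count was again 0 by both tools, with 387 genes (2.09%) at an unadjusted p below 0.05. Both comparisons share libraries with the ones above.

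The response of 4 h was compared with that of 24 h, in groups that share no library with the 4 h groups. At 24 h, 14.3% of the genes were regulated, 2026 higher (11.0%) and 618 lower (3.34%). Of the genes regulated at 4 h, 234 of the 406 higher (57.6%) and 171 of the 341 lower (50.1%) were regulated in the same direction at 24 h, and 8 in the opposite one. The difference between the times was tested in the same model, and it was called for 1200 genes (6.49%) by the same limits. Among the 406 genes higher at 4 h it was called for 51, of which 37 had an effect nearer to 0 or past it at 24 h, and among the 341 lower genes for 61, of which 46 did.

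SPRY4 and DUSP6 were also far lower at 24 h, and no difference from 4 h was called for them. At that time the log2FC was -5.00 for SPRY4 and -3.95 for DUSP6, with differences from 4 h of 0.19 and 0.05 (adjusted p = 0.81 and 0.95). ETV5 fell further, since its afatinib libraries had 1.06, 0.746 and 0.945 CPM against 11.6, 11.8 and 26.1 CPM in untreated cells at 24 h (log2FC -4.12, difference -2.14, adjusted p = 2.68e-07). EGR1 also did (log2FC -4.26 at 24 h). EPHA2 (-0.99) and DUSP4 (-1.47) had smaller falls at 24 h, with adjusted p of the difference of 2.2e-06 and 5.6e-08. Thrombomodulin (THBD) was at 36 ± 8.27 and 8.58 ± 0.732 CPM at 4 h and at 26.2 ± 7.68 and 22.1 ± 5.42 CPM at 24 h. ITGB8 (15.3 ± 3.11 and 52.9 ± 16.4 CPM at 4 h) was at 21.7 ± 3.35 and 23.8 ± 4.00 CPM at 24 h, and PDK4 at 8.33 ± 1.49 and 10.6 ± 1.54 CPM. CDKN1C stayed high (log2FC 2.45 at 24 h).

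The cell cycle lists differed between the times. By the adjusted p alone all 28 S phase genes and all 24 mitosis genes were lower at 24 h than in untreated cells, against 30.6% of all genes, with medians of -0.75 and -0.73 in log2FC. The difference from 4 h had an adjusted p below 0.05 for each of these 28 and 24 genes, against 19.1% of all genes with a lower effect at 24 h, and the median differences were -0.82 and -0.98. All 27 ribosome biogenesis genes were lower at 24 h (median -0.83), 7 of them regulated. Of 21 glycolysis genes, 18 were lower by the adjusted p alone at 24 h, against 6 at 4 h.

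**Figure D4:**
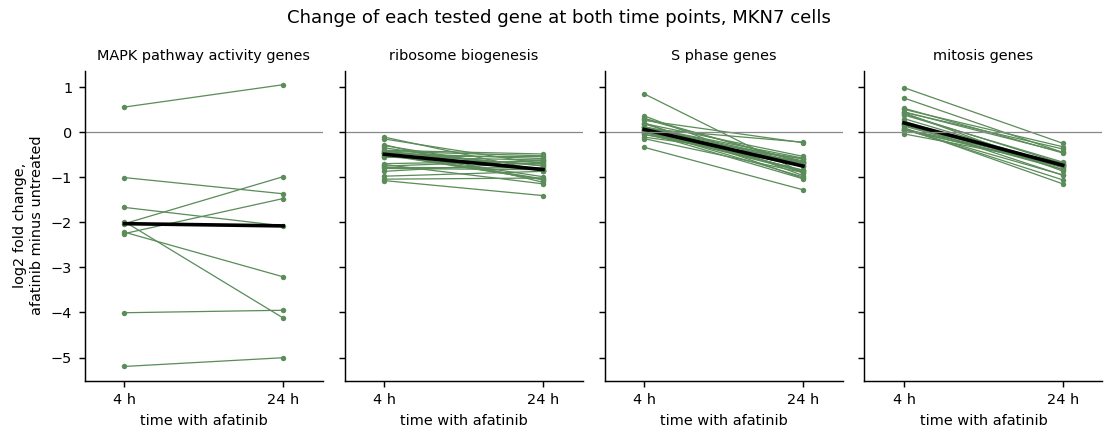
Log2 fold change (afatinib minus untreated) of each tested gene at 4 h and 24 h in 4 lists (thin lines) with the list median (thick line). The MAPK pathway activity medians are -2.03 and -2.08, and the S phase and mitosis genes pass from medians of 0.06 and 0.20 at 4 h to -0.75 and -0.73 at 24 h.

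NCI-N87 and MKN1 cells were also treated with afatinib for 4 h, and the difference of effect was tested in a joint model of 36 libraries and 20631 genes. NCI-N87, which like MKN7 has a high ERBB2 level, had 763 regulated genes (3.7%) and MKN1 had 225 (1.09%). The effect differed from that in MKN7 for 307 genes in NCI-N87 and for 308 in MKN1 (1.49% each). Without the replicate block these counts were 109 and 125, and without replicate 3 they were 180 and 181.

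The genes with the largest falls in MKN7 were lower in the other lines as well, with DNMBP in NCI-N87 as an exception, while rises were smaller in MKN1. These genes were picked by their change in MKN7, so smaller effects in another line are partly built into the choice. In NCI-N87 and MKN1 the log2FC of SPRY4 was -3.91 and -3.76, that of DUSP6 -4.70 and -3.35, that of FOSL1 -2.95 and -2.28, and that of TNS4 -2.73 and -2.39. The effect on SPRY4 was smaller than in MKN7 by 1.26 and 1.41 (adjusted p = 0.0024 and 0.00025), whereas those on DUSP6 and FOSL1 were not called different. SPRED2 fell by less in both (-1.28 and -1.11, differences 0.89 and 1.07). DNMBP, 4.46-fold lower in MKN7, was at 42.9 ± 8.29 and 41.0 ± 5.32 CPM in NCI-N87, with a difference of effect of 2.07 (adjusted p = 1.4e-15). ETS1 (-0.16 in NCI-N87) was called different with 1.02.

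DIO2, the largest of the plotted rises in MKN7, was at 1.33 ± 0.538 and 1.27 ± 0.557 CPM in NCI-N87 and at 156 ± 46.3 and 194 ± 64.3 CPM in MKN1. The differences of -2.39 and -2.02 had adjusted p of 1.2e-07 and 1.7e-11. FBXO32 rose in NCI-N87 (1.82) as in MKN7 and less in MKN1 (0.63, difference -0.97), as did KLHL24 (2.08 and 0.69), CDKN1C (2.02 and 0.53) and CCNG2 (1.96 and 0.46). YPEL3 rose in NCI-N87 (1.68), and its log2FC in MKN1 was 0.36 (adjusted p = 0.0713). For these 5 genes the difference between MKN1 and MKN7 had an adjusted p of 3.8e-06 or less, and that between NCI-N87 and MKN7 of 0.17 or more. BMF, with 7.20 ± 0.791 CPM after afatinib in MKN7, reached 34.3 ± 2.97 CPM in NCI-N87 from 2.79 ± 0.382 CPM (difference 2.49) and 5.44 ± 1.35 CPM in MKN1 from 1.75 ± 0.222 CPM. ITGB8 had differences of -1.31 and -2.10.

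**Figure D5:**
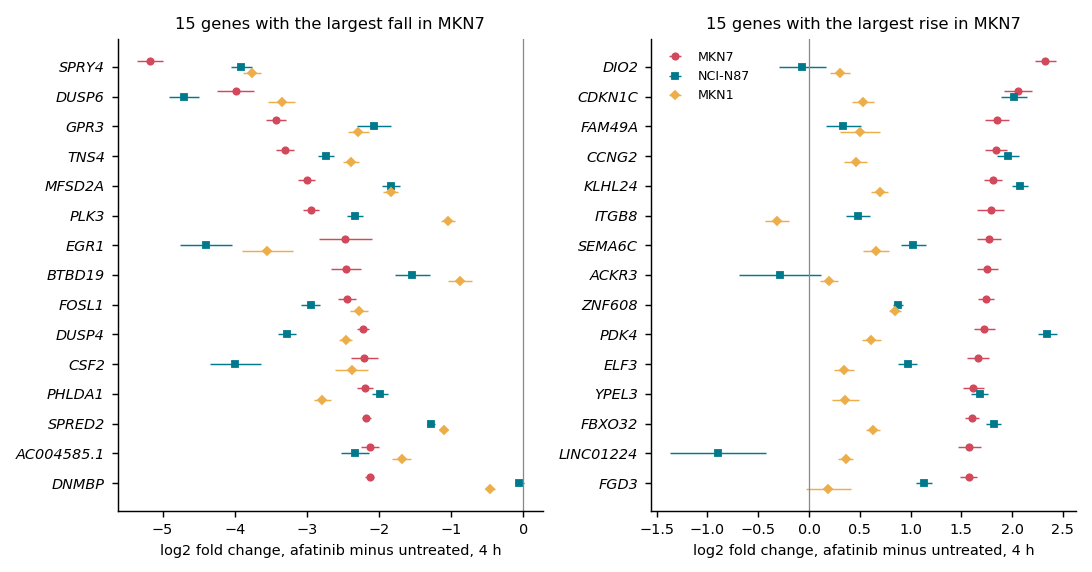
Log2 fold change (afatinib minus untreated, 4 h; lines are the SE) in MKN7, NCI-N87 and MKN1 cells, from the joint model of 3 lines, for the 15 genes with the largest falls (left) and rises (right) in MKN7. SPRY4, DUSP6 and FOSL1 lie far left of 0 in each line, DNMBP (-0.06) and DIO2 (-0.06) lie at 0 in NCI-N87, and MKN1 lies below MKN7 for each of the 15 rises. The choice of genes by their MKN7 change favours larger values in MKN7.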

How the data were processed

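The authors deposited raw counts per gene for each library, from polyA RNA made into directional libraries and read as pairs. Per the labels, reads were trimmed with Trim Galore and aligned with STAR to hg38; counter, annotation and strand setting are not given in the sources used here. Counts cover 65217 gene identifiers, of which 8404, with 0.0563% of the counts in the 6 libraries, have no entry in GENCODE 29 (GRCh38), which gave symbols and positions.

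Genes were tested with edgeR 4.0.16 (R 4.3.3, TMM, quasi-likelihood test, low genes dropped by filterByExpr at 10 counts per library and 15 in all) in 1 model of all 24 MKN7 libraries, with a mean per treatment and time and the replicate number within a time point as block. Pairing by replicate number was set with the rule that chose the libraries. The deviations of same-numbered 4 h libraries from their group means correlated (r = 0.237, 0.340 and 0.389, against -0.270 to -0.0214 for other pairs). Deviations within a group sum to 0, so the values of the other pairs are not independent of the former. Lines were compared in a model of 36 libraries of 4 h. Replicates differed beyond sampling noise and none were identical. The edgeR script was tested on simulated data. Mean log2 CPM used a prior count of 2. DESeq2 1.42.0, other filters, scaling and blocks, and leaving out replicates or libraries were alternatives. The directional kit does not tell whether counting used strand, so overlapping and antisense genes cannot be told apart.

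The genes named are the 15 largest rises and falls of regulated genes that moved alike in all 3 pairs at a mean log2 CPM above 1, members of 36 gene lists, up to 5 genes per direction for each difference of effect, and promoters of up to 3 genes per direction plus EGR1. EGR1 and these lists and members were chosen with earlier results of these data known. Counting intervals were not needed, and the floor of 3 counts covers counting error only. Promoter windows come from RefSeq (GRCh38.p14).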

Additional observations from a re-analysis of the deposited data

Results flagged for a closer look

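The effect of afatinib in MKN7 cells at 4 h was set against its effect at 24 h and in NCI-N87 and MKN1 cells, and the difference itself was tested (edgeR, adjusted p below 0.05 and a difference of log2FC beyond 1). It was called for 1200 genes between the times, for 307 genes between NCI-N87 and MKN7, and for 308 genes between MKN1 and MKN7. The genes below are those with the largest called differences among genes regulated in MKN7 at 4 h, and that MKN7 value enters the difference, so some return towards 0 is built into the choice.

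Between the times, the effect at 24 h lay below that at 4 h for ETV5 (-2.14), EGR1 (-1.76), the chromatin protein HMGA2 (-1.75), PLCXD3 (-1.71) and ITGB8 (-1.64). For ETV5, EGR1 and HMGA2 this was a deeper fall (log2FC -4.12, -4.26 and -3.31 at 24 h), and for PLCXD3 and ITGB8 the rise was gone (-0.33 and 0.13). The effect at 24 h lay above that at 4 h for THBD (1.82), the CDC42 effector CDC42EP2 (1.77), the syntaxin STX1A (1.64), PSG8 (1.62) and HSD3B1 (1.40). THBD, CDC42EP2 and STX1A had returned to log2FC values of -0.24, 0.07 and -0.28, PSG8 had risen further (3.15) and HSD3B1 was at 0.34. PSG8 and HSD3B1 have near-identical relatives and their counts are uncertain. At 4 h, HSD3B1 had a log2FC of -1.06, which was -0.99 without untreated replicate 3 and -0.997 without afatinib replicate 1.

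Between NCI-N87 and MKN7, LINC01224 (-2.47), DIO2 (-2.39), ACKR3 (-2.04), EGR1 (-1.93) and FOS (-1.82) had lower effects in NCI-N87. LINC01224 and ACKR3 were near the floor there, with means of 0.129 and 0.263 CPM in untreated NCI-N87 cells, so their differences rest on few counts, and without replicate 1 the adjusted p of the difference was 0.428 for LINC01224 and 0.341 for ACKR3. EGR1 had 101, 296 and 103 CPM in the untreated NCI-N87 libraries and FOS 19.6, 46.1 and 23.0 CPM, so replicate 2 stood apart for both. Without replicate 2 the difference was -1.39 for EGR1 (adjusted p = 0.0581, no longer called) and -1.18 for FOS (adjusted p = 0.0112). Without the replicate block the adjusted p was 0.133 for LINC01224, 0.228 for ACKR3, 0.0701 for EGR1 and 0.145 for FOS, and none of these 4 was called. BMF (2.49), DLL1 (2.44), ZNF792 (2.37), AC241952.1 (2.22) and DNMBP (2.07) had higher effects in NCI-N87. DLL1 was near the floor in NCI-N87 (0.159 and 0.300 CPM), and AC241952.1 has near-identical copies in the genome.

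Between MKN1 and MKN7, PSG8 (-2.35), ITGB8 (-2.10), DIO2 (-2.02), the repulsive guidance molecule RGMA (-1.67) and ENSG00000170647 (-1.67), an identifier without a symbol in the annotation used, had lower effects in MKN1. PSG8 was near the floor in MKN1 (0.188 and 0.106 CPM), and the adjusted p of its difference was 0.266 without replicate 2 and 0.0811 without the replicate block. AC241952.1 (2.15), PRR7-AS1 (2.05), PLK3 (1.90), ZNF792 (1.69) and DNMBP (1.67) had higher effects. PRR7-AS1 overlaps PRR7 and GRK6 on the other strand, and STX1A overlaps BUD23 and CDC42EP2 overlaps AP000944.2, so reads of these pairs may be mixed. PLK3 was at 48.6 ± 2.07 and 23.6 ± 2.40 CPM in MKN1 against 49.0 ± 12.4 and 6.21 ± 1.16 CPM in MKN7.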

How the results depend on the processing

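The 747 regulated genes (406 higher, 341 lower) became 702 (390, 312) with DESeq2, 629 (335, 294) without the replicate block, 805 (531, 274) with scaling by library total, 774 (476, 298) without a filter, 628 with only the 2 groups and 726 with 1 block for both times. They were 427 (212, 215) with at least 10 counts in every library, where fewer genes were tested, and 7093 without a fold change limit, 616 to 777 without a replicate number and 652 to 854 without a library. For trastuzumab + afatinib against trastuzumab the 683 became 374 with at least 10 counts in every library and 548 to 736 without a replicate. For trastuzumab against untreated the 0 became 20 without a filter and 0 to 7 without a replicate (7 without replicate 1), and for trastuzumab + afatinib against afatinib 1 and 0 to 1. The difference of 24 h and 4 h (1200) was 881 to 1118 without a replicate and 864 without the block. The 307 genes that differed between NCI-N87 and MKN7 were 171 with at least 10 counts in every library, 109 without the replicate block and 180 to 317 without a replicate. The 308 between MKN1 and MKN7 were 173, 125 and 181 to 346. Where no filter or other tested set is named, the cause was not tested. Of 2794 values of 175 named genes under 16 alternatives, 2714 kept direction and side of the limits, 47 lost and 32 gained a call, and 1 reversed, ERBB4 at -0.0073 without afatinib replicate 2 (up to 0.30 without afatinib replicate 1). The block changed the calls of EGR4, FOS, IL1A, PECAM1 and SPRY2. With 3 libraries per group, genes near the floor are the least certain.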

Other observations

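Regulated neighbours occurred among the largest changes, a feature that no list was made for. PLK3 and BTBD19 lie 2492 bases apart on chromosome 1 and on the same strand, and both fell, PLK3 from 49.0 ± 12.4 to 6.21 ± 1.16 CPM and BTBD19 from 11.4 ± 4.4 to 2.03 ± 0.655 CPM (log2FC -2.97 and -2.49). TNS4 and the noncoding AC004585.1 lie 15429 bases apart on chromosome 17 and on opposite strands, and AC004585.1 went from 7.33 ± 1.04 to 1.64 ± 0.143 CPM (log2FC -2.16) beside TNS4 (-3.33). Whether these transcripts share reads or a promoter region was not tested.

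In MKN1 the effect on PLK3 and BTBD19 was smaller than in MKN7 for both (differences 1.90 and 1.58, adjusted p = 1e-10 and 9.7e-05), whereas in NCI-N87 the difference was 0.61 for PLK3 (adjusted p = 0.0099) and 0.92 for BTBD19 (adjusted p = 0.076), of which only the former passed 0.05. The effect on AC004585.1 was not called different in either line (log2FC -2.33 in NCI-N87 and -1.68 in MKN1).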
